A study of Mus musculus with 9 samples.

Results

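The interferon response and major histocompatibility complex (MHC) class I antigen presentation were followed in the mouse retina through 9 genes: Irf1, Irf7, Ifit3, Isg15, Bst2, B2m, H2-K1, H2-D1 and Psmb8. They were taken by gene name from the RNA-seq count table, 9 of its 54532 genes, and their counts were read in all 9 mice. Retinas came from wild-type C57BL/6 mice at postnatal day 17 (P17), with 3 mice in each of 3 groups. Control mice stayed in room air, and their label names the vehicle DMSO. The OIR mice went through oxygen-induced retinopathy, in which a period of hyperoxia closes off central retinal vessels and the later return to room air leaves the retina ischemic, and they also received DMSO. The treated OIR mice went through the same model and received 32-134D, an inhibitor of the hypoxia-inducible factors (HIFs). The protocol gives a single injection into the eye of OIR mice at P12, and whether the control mice were injected is not clear from the sources used here. The labels give the inhibitor as 70 ng in the group name and as 70 ng/µl in the protocol. By the labels, all 3 groups share the strain and the age.

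Interferons bind receptors that signal through JAK kinases to STAT proteins, which switch on interferon-stimulated genes. Type I interferon acts mainly through the interferon-stimulated response element (ISRE), and interferon gamma through the gamma-activated site (GAS) and through IRF1. Among the induced genes are antiviral effectors and the machinery that cuts proteins into peptides and shows them on MHC class I at the cell surface. Neurons of the normal retina carry little MHC class I compared with its resident microglia, and class I genes also respond to NF-kappaB. No member is a cell type marker in the lists used here.

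The upstream sequences of the members were searched for fixed patterns of these elements. Of them 6 are printed here, the 4 with a match to the ISRE core and those of H2-K1 and Irf1 as examples of the NF-kappaB site and of GAS. RefSeq promoter windows (GRCm38.p6) were found for all 9 members, and 250 bases before the start of transcription were searched on both strands. The ISRE core was written as GAAANNGAAA, GAS as TTCNNNGAA, and the NF-kappaB site as the kappaB consensus. Capitals mark every match, and only the last 160 bases before the start are shown, 5′ to 3′ on the gene's own strand. The stretches are chr4:156200819-156200978 (minus strand) for Isg15, chr19:34583369-34583528 (plus) for Ifit3, chr8:71537473-71537632 (minus) for Bst2, chr2:122147527-122147686 (plus) for B2m, chr17:34000348-34000507 (minus) for H2-K1 and chr11:53769854-53770013 (plus) for Irf1.
Isg15: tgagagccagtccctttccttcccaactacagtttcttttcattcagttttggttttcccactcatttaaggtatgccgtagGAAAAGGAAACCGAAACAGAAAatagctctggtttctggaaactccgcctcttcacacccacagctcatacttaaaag
Ifit3: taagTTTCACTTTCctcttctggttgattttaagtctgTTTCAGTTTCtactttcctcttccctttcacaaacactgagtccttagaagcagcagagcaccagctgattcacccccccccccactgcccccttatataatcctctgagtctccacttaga
Bst2: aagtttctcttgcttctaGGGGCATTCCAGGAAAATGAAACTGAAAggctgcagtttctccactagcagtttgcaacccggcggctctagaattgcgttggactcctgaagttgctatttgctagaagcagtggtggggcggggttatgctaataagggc
B2m: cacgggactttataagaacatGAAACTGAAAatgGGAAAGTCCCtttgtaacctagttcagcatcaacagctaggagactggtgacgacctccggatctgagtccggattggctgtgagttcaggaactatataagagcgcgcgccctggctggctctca
H2-K1: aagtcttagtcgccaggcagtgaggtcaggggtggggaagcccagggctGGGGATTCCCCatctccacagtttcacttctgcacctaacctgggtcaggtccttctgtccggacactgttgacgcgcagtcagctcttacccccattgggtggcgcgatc
Irf1: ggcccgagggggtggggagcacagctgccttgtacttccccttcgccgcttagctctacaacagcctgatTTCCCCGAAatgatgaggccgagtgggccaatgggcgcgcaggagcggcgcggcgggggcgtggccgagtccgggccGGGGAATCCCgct

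The ISRE core was matched in 4 of the 9 members (Ifit3, Isg15, Bst2 and B2m), against 2.98% of all 32851 windows of the same length. Isg15 held 3 overlapping copies between bases -78 and -57, Bst2 held 2 overlapping copies, and Ifit3 held 2 separate copies on the opposite strand. GAS was matched in Irf1, Bst2 and Psmb8, 3 of 9 members, against 7.02% of windows. The kappaB consensus was matched in 5 members (Irf1, Bst2, B2m, H2-K1 and H2-D1), against 3.90% of windows. In Bst2 the GAS match overlapped both the kappaB match before it and the first ISRE core after it, so its capitals form 1 run. The 2 class I heavy chains shared a 47-base stretch that holds the kappaB match, at chr17:34000442-34000488 for H2-K1 and chr17:35262893-35262939 (plus strand) for H2-D1:
H2-K1 and H2-D1: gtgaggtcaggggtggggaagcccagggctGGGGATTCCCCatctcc
Irf7 had no match of the 3 motifs in this window. These matches describe letters in a window and do not show that a factor bound there. A strict pattern can miss variants of an element. The lack of a match, as for the ISRE core in H2-K1 and H2-D1, therefore does not show that the element is absent.

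All 9 members were well measured and passed the filter on low counts, with 28 to 5186 reads per gene and mouse. Total counts per mouse ranged from 16028731 to 27213184. Per kilobase of gene length, the mean level over the 9 mice was highest for B2m, the invariant light chain of class I, at 108 CPM per kilobase, CPM being reads scaled to the library total. The 2 heavy chains followed, with 52.7 for H2-D1 and 33.9 for H2-K1. Bst2, which encodes the virus-tethering protein tetherin, stood at 14.1 CPM per kilobase. Below it came the interferon-induced antiviral gene Ifit3 at 6.73, the transcription factor Irf7 at 4.50 and the ubiquitin-like modifier Isg15 at 4.22. Irf1, a transcription factor of the interferon gamma response, was at 2.40 and Psmb8, the catalytic immunoproteasome subunit that takes the place of Psmb5, was at 2.10 CPM per kilobase. Neighbours from Ifit3 down lay within the spread of the mice: Ifit3 ran from 3.55 to 11.5, Irf7 from 3.16 to 6.19 and Isg15 from 2.39 to 6.84 CPM per kilobase.

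Some libraries stood apart before any comparison. Control mouse 1 was the highest of the 3 controls for 8 of the 9 members, the exception being Irf1. Treated OIR mouse 2 had 15.2% of its counts in 18 lens genes, against at most 0.171% in any other mouse. Xist and Y-linked counts were those of females in treated OIR mice 2 and 5, in OIR mouse 3 and in control mouse 1. No 2 libraries were identical. Each library is labelled as 1 mouse, with no litter or day given.

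**Figure D1:**
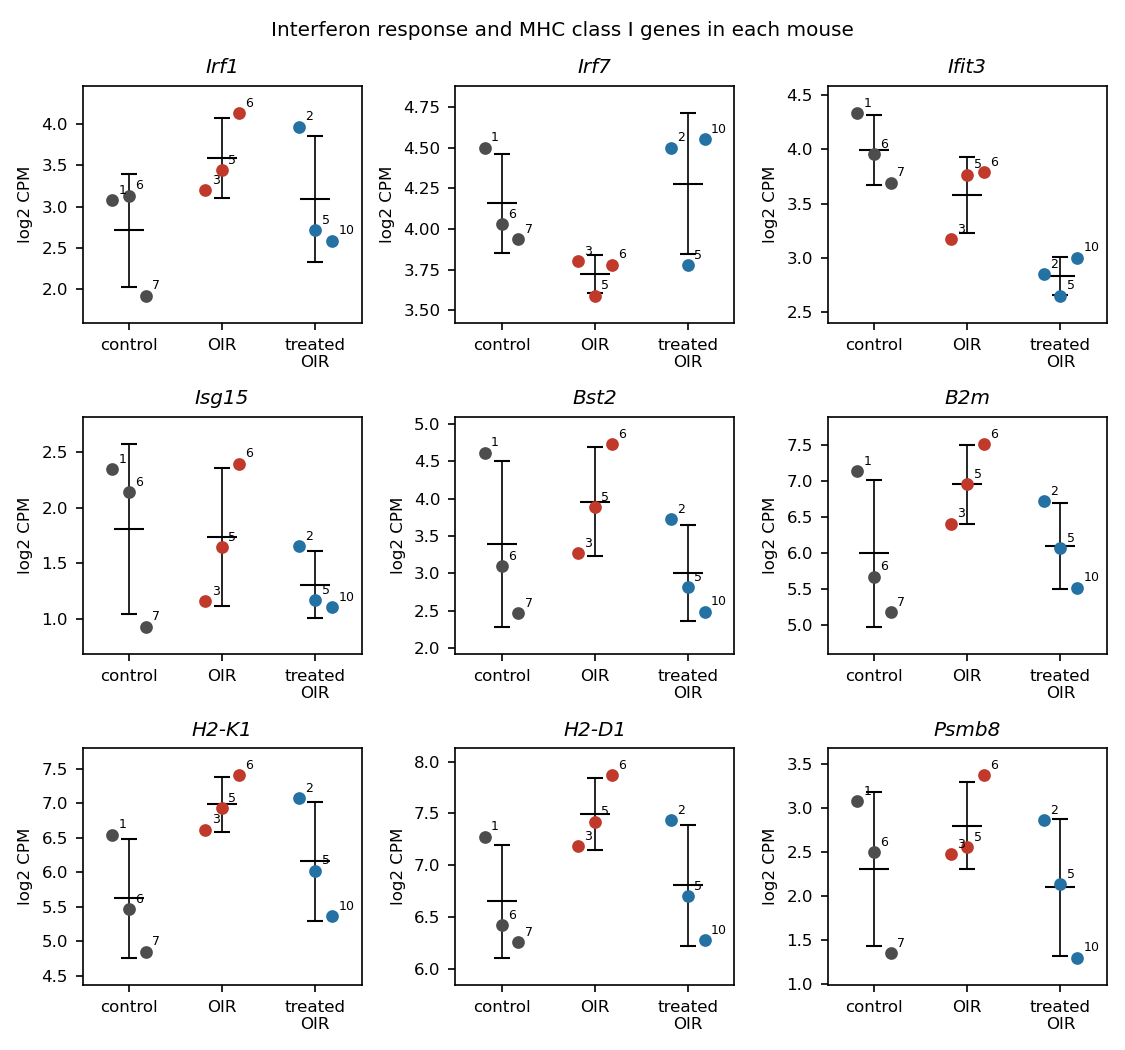
Each panel plots 1 gene, with log2 CPM on the vertical axis and the 3 mice of each group as points labelled by mouse number, and bars for the mean and SD. Ifit3 in the 3 treated OIR mice lies below all 6 other mice, H2-K1 in the 3 OIR mice lies above all 3 controls, and control mouse 1 is the highest control in 8 of the 9 panels.

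The first comparison asked how ischemic retinopathy itself moved these genes. None of the 9 members passed an adjusted p of 0.05 between OIR and control mice in edgeR's quasi-likelihood test, where 0.941% of the 17540 genes tested did. At an unadjusted p below 0.05, 2 members were higher (H2-K1 and H2-D1) and 0 were lower, against 11.1% of all genes higher and 12.7% lower. Of all 9, 6 had a positive and 3 a negative log2 fold change, and their median was 0.39 against 0.03 over all genes tested. The highest fold changes were those of H2-K1, Irf1 and H2-D1, whereas Irf7, Ifit3 and Isg15 had values below 0.

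H2-K1 encodes the K heavy chain of class I, which presents peptides to CD8 T cells. Its level was 93.2, 44.0 and 28.8 CPM in control mice 1, 6 and 7, and 98.0, 122 and 169 CPM in OIR mice 3, 5 and 6. The 3 OIR mice were thus all above the controls, OIR mouse 3 only narrowly above control mouse 1. The log2 fold change was 1.22 ± 0.50 (SE, n = 3 per group), a 2.34-fold difference, with an adjusted p of 0.182 in edgeR and an unadjusted p of 0.0375 in the same edgeR fit. With limma-voom the adjusted p was 0.0298, the only one of the 20 alternatives in which H2-K1 passed. Here and below, limma-voom was run with sample quality weights, which give more variable libraries less weight.

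H2-D1, the D heavy chain, was at 155, 85.7 and 76.7 CPM in control mice 1, 6 and 7. In OIR mice 3, 5 and 6 it was at 146, 171 and 233 CPM. Control mouse 1 lay above OIR mouse 3, so the groups overlapped. The log2 fold change was 0.79 ± 0.35 (SE, n = 3 per group), with an edgeR adjusted p of 0.206. H2-D1 passed with DESeq2 fitted on the 2 groups alone (adjusted p 0.0116) and with limma-voom (adjusted p 0.0377). B2m, which both chains need to reach the cell surface, was at 140, 50.7 and 36.0 CPM in controls and 84.6, 123 and 181 CPM in OIR mice. Its groups also overlapped through control mouse 1, and its log2 fold change was 0.77 ± 0.51 (SE, n = 3 per group).

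Among the other members, 2 more separated the groups. Irf1 was at 8.35, 8.67 and 3.67 CPM in controls and at 9.09, 10.8 and 17.5 CPM after OIR, which gave 0.84 ± 0.46 on the log2 scale (SE, n = 3 per group). Irf7 was at 22.5, 16.2 and 15.2 CPM in controls and at 13.8, 11.9 and 13.6 CPM after OIR, which gave -0.46 ± 0.23 on the log2 scale (SE, n = 3 per group). All OIR mice were above the controls for Irf1 and below them for Irf7, and neither gene passed the test (edgeR adjusted p 0.297 and 0.267). Together with H2-K1, 2 members had groups that did not overlap with OIR higher and 1 with OIR lower, against 15.9% and 17.2% of all genes tested.

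The remaining members overlapped between OIR and control. Bst2 was at 24.4, 8.42 and 5.42 CPM in controls and 9.57, 14.6 and 26.4 CPM in OIR mice, with a log2 fold change of 0.39 ± 0.59 (SE, n = 3 per group). Psmb8 ranged from 2.45 to 8.35 CPM in controls and from 5.45 to 10.3 CPM in OIR mice, and Isg15 from 1.81 to 4.99 and from 2.14 to 5.17 CPM. Their log2 fold changes were 0.39 for Psmb8 and -0.11 for Isg15. Ifit3 was at 20.0, 15.4 and 12.8 CPM in controls and at 8.93, 13.5 and 13.7 CPM in OIR mice. Its log2 fold change was -0.42 ± 0.23 (SE, n = 3 per group; edgeR adjusted p 0.301). In Bst2, Psmb8 and Isg15 control mouse 1 lay above OIR mice 3 and 5. Without control mouse 1, the median log2 fold change of the 9 members was 1.003 in place of 0.39, 7 members were positive, and 4 had an unadjusted p below 0.05, in a fit where 10.97% of all genes were higher and 12.14% lower at that level. With OIR mouse 3 left out the median was 0.68. Without control mouse 7 the median was 0.05, and without OIR mouse 6 it was 0.04 with no member at an unadjusted p below 0.05.

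The second comparison asked how the members differed once the HIF inhibitor was given. No member passed an adjusted p of 0.05 between treated OIR and OIR mice, where 0.00% of the genes tested did, and DESeq2 and limma-voom also called none of the 9. At an unadjusted p below 0.05 in edgeR, Irf7 was higher and Ifit3 lower, 1 member each way, against 2.39% and 2.30% of all genes. Of the 9, 8 had a negative log2 fold change and 1 a positive one, with a median of -0.64 against 0.01 over all genes. The OIR mice enter both this comparison and the first, so opposite signs in the 2 are not independent.

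Ifit3 is an antiviral protein strongly induced by type I interferon. It was at 8.93, 13.5 and 13.7 CPM in OIR mice 3, 5 and 6, and at 7.11, 6.19 and 7.91 CPM in treated OIR mice 2, 5 and 10. All treated OIR mice were below all OIR mice. The log2 fold change was -0.77 ± 0.23 (SE, n = 3 per group), a 1.70-fold lower level, with an edgeR adjusted p of 0.984 and an unadjusted p of 0.00903 in edgeR. Ifit3 was the single member whose groups did not overlap with treated OIR lower, and 0 were without overlap and higher, against 5.39% and 3.74% of all genes tested. Irf7, which drives interferon production in many cells, was at 22.5, 13.6 and 23.4 CPM in treated OIR mice, so treated OIR mouse 5 lay within the OIR range and the other 2 above it. Its log2 fold change was 0.60 ± 0.23 (SE, n = 3 per group; edgeR adjusted p 1).

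The class I genes and Bst2 were lower in treated OIR mice on average but overlapped with OIR. H2-K1 was at 135, 64.9 and 41.2 CPM in treated OIR mice 2, 5 and 10, a log2 fold change of -0.69 ± 0.50 against OIR (SE, n = 3 per group). H2-D1 was at 173, 104 and 77.4 CPM, a log2 fold change of -0.63 ± 0.35. B2m was at 105, 66.6 and 45.6 CPM, a log2 fold change of -0.84 ± 0.51. In all 3 genes treated OIR mouse 2, the one rich in lens RNA, lay within the OIR range, and mice 5 and 10 lay below it. Bst2 followed the same order, with 13.1, 6.93 and 5.50 CPM and a log2 fold change of -0.99 ± 0.60. Psmb8 (2.36 to 7.17 CPM), Isg15 (2.06 to 3.05 CPM) and Irf1 (5.91 to 15.6 CPM) had log2 fold changes of -0.64, -0.52 and -0.42. Without treated OIR mouse 2 the median of the 9 members was -0.99 and 4 had an unadjusted p below 0.05. The 4 are counted in either direction, and in that fit 4.69% of all genes were lower and 8.35% higher at that level. The adjusted threshold was passed by 0 of 9 members and by 0 of all genes. Without OIR mouse 6 the median was -0.42, and without treated OIR mouse 10 it was -0.41.

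**Figure D2:**
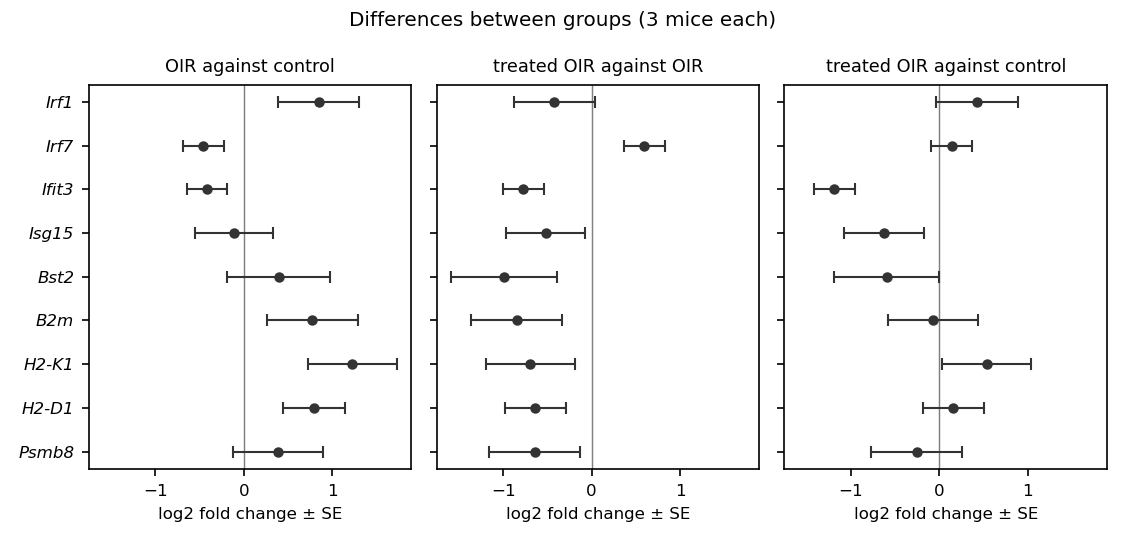
The 3 panels give the log2 fold change on the horizontal axis for each member (rows) in 1 comparison, with bars for the SE of the edgeR fit and 3 mice per group. OIR against control places H2-K1 at 1.22 and Irf7 at -0.46, treated OIR against OIR places 8 of 9 members below 0, and treated OIR against control places Ifit3 at -1.19, farthest from 0.

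Against control, the members of treated OIR mice had values in both directions. The 9 genes had 4 positive and 5 negative log2 fold changes with a median of -0.07 against 0.01 over all genes, and none passed in edgeR, where 0.0228% of genes did. Ifit3 was the 1 member with an unadjusted p below 0.05 and lower, against 8.60% of all genes. Its control values were 20.0, 15.4 and 12.8 CPM, so every treated OIR mouse was below every control. The log2 fold change was -1.19 ± 0.23 (SE, n = 3 per group), a 2.28-fold lower level, with an edgeR adjusted p of 0.102 and an unadjusted edgeR p of 0.000643. Ifit3 passed with DESeq2 on all 9 mice (adjusted p 0.00093), with DESeq2 on the 2 groups (adjusted p 0.00259) and with limma-voom (adjusted p 0.0219). The median of the 9 members was 0.33 without control mouse 1, 0.06 without treated OIR mouse 10, -0.41 without control mouse 7 and -0.44 without treated OIR mouse 2. Ifit3 was the 1 member without overlap and lower, with 0 higher, against 12.2% and 12.8% of all genes.

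Ifit3 has a near copy, Ifit3b, and 51.2% of the 50-base stretches of its transcripts also occur in Ifit3b, so reads of the 2 may have been divided in a way the sources used here do not give. Ifit3b was at 9.32, 5.85 and 5.42 CPM in controls, 4.01, 5.45 and 4.99 CPM in OIR mice, and 3.05, 3.01 and 3.19 CPM in treated OIR mice. The treated OIR mice were again the lowest, with a log2 fold change of -1.16 ± 0.26 against control (edgeR adjusted p 0.114). The class I heavy chains shared less, with 9.63% of such stretches of H2-K1 and 12.8% of those of H2-D1 found in other genes. Psmb8 shared 11.6% with the antisense gene Gm20496 and Irf1 shared 1.24% with Gm17334, an overlapping gene on the other strand. B2m lies inside the span of Patl2 on the other strand but shared 0 stretches. Whether the counting used strand is not given in the sources used here.

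The members did not vary together as 1 group. Over the 9 mice, which share libraries and depth for both genes of a pair, the Pearson r of log2 CPM was 0.98 for H2-K1 with H2-D1, 0.97 for B2m with H2-D1 and 0.95 for Bst2 with B2m. Ifit3 gave 0.03 with H2-K1 and 0.66 with Isg15, and Irf7 gave between -0.20 and 0.10 with every other member. The count ratio of H2-K1 to H2-D1 was 0.60, 0.51 and 0.38 in controls, 0.67, 0.71 and 0.72 in OIR mice and 0.78, 0.62 and 0.53 in treated OIR mice. All OIR ratios lay above all control ratios, which is the same separation seen for H2-K1 alone.

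Most members also varied with markers of microglia and macrophages, Irf7 being the exception. The summed level of 18 microglia and macrophage markers was 709, 299 and 151 CPM in control mice 1, 6 and 7, 336, 481 and 705 CPM in OIR mice 3, 5 and 6, and 255, 184 and 173 CPM in treated OIR mice 2, 5 and 10. All treated OIR mice were below all OIR mice, whereas the controls spanned both groups. Of the 18 markers, 17 had a negative log2 fold change in treated OIR against OIR. At an unadjusted p below 0.05 in edgeR 11 were lower and 0 higher, against 2.30% and 2.39% of all genes. The adjusted threshold was passed by 0 of them. Among them Cx3cr1, the fractalkine receptor of microglia, had a log2 fold change of -1.18 and Tyrobp, a myeloid signalling adaptor, of -2.03. Over the 9 mice the r with this sum was 0.95 for Bst2, 0.89 for B2m, 0.87 for Psmb8, 0.84 for Isg15, 0.80 for H2-D1, 0.74 for H2-K1, 0.68 for Irf1, 0.65 for Ifit3 and -0.13 for Irf7. The share of all genes with such an r is not given here. The part of microglia and macrophages in the members' levels was not tested. In bulk retina, fewer cells of a type and less RNA per cell cannot be told apart.

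**Figure D3:**
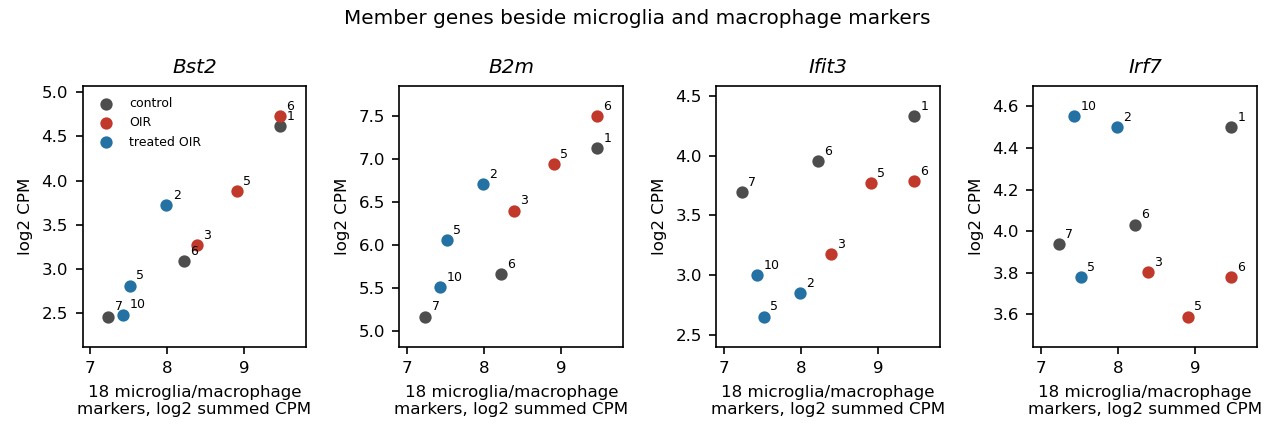
Each panel plots log2 CPM of 1 member (vertical axis) against the log2 summed CPM of 18 microglia and macrophage markers (horizontal axis) in the 9 mice, labelled by number and coloured by group. Bst2 and B2m lie along a rising band (r of 0.95 and 0.89), Ifit3 has an r of 0.65, and Irf7 shows no such band (r of -0.13).

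Markers of other cell types were also summed, and some lists separated the groups while others overlapped. The 9 neutrophil and monocyte markers summed to 0.258 to 3.28 CPM in controls, 5.08 to 11.1 CPM in OIR mice and 0.514 to 3.68 CPM in treated OIR mice. These sums rest on few reads: 8 of the 9 markers were at 0 in control mouse 7, and only 4 of the 9 were tested. Markers of T, NK and B cells, a list of 15, summed to between 3.48 and 6.71 CPM in every mouse, most of it Cd8a, and the T cell gene Cd3d and the cytotoxic gene Gzmb were at 0 in all 9. The 10 Müller glia and astrocyte markers summed to 7839 to 8893 CPM in controls, 10195 to 13487 CPM in OIR mice and 6866 to 8265 CPM in treated OIR mice. One of them, the glutamate transporter Slc1a3, rose in OIR against control by a log2 fold change of 0.95 ± 0.16 (edgeR adjusted p 0.0447). Of the 10 endothelial markers 9 were positive in treated OIR against OIR. At an unadjusted p below 0.05 there were 0, against 2.39% of all genes higher and 2.30% lower. Their summed level gave an r between -0.68 and -0.09 with the members. Red blood cell markers were lower in OIR against control for 5 of 5 at an unadjusted p below 0.05, against 12.7% of all genes. The part of these cells in the members' levels was not tested. Rod photoreceptor markers, which check the tissue as retina, summed to at least 41094 CPM in every mouse.

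By likeness, the genes closest to the members' mean profile over the 9 mice came mostly from outside the lists used here. Those with the highest Pearson r, among 13969 genes with a mean log2 CPM of at least 1, included Adam8, Lgals3, Tspo, Rab7b, Tln1, Hk3, Scpep1, Oasl2 and Rhog, with r from 0.97 to 0.99. Of these, Oasl2 is an interferon-stimulated gene of the lists used here. Adam8 was at 25.3, 3.81 and 1.16 CPM in controls, 4.12, 10.2 and 24.7 CPM in OIR mice and 10.3, 2.27 and 2.004 CPM in treated OIR mice. It thus had its highest values in control mouse 1 and OIR mouse 6, as Bst2 did.

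At the head of the pathway, interferon transcripts were close to absent from these libraries. None of the 9 ligand genes listed had enough reads to be tested, and Ifng, Ifna1, Ifna2, Ifna4 and Ifnk had 0 reads in all 9 mice. Ifnb1 had at most 8 reads, all in control mouse 1, and Ifnl3 at most 13 in a mouse, with 7 mice at 0. A count of 0 allows up to 3 reads per library, and covers counting error only. The receptors and JAK-STAT genes were all measured, and 0 of 14 passed the edgeR threshold in any of the 3 comparisons, as with DESeq2, while limma-voom called Usp18, a brake on receptor signalling, in treated OIR against control. In OIR against control, 3 of 14 were higher at an unadjusted p below 0.05, against 11.1% of all genes, with Ifnar1 (a type I receptor chain) at 0.35 ± 0.11 and the kinase Jak2 at 0.36 ± 0.11. Stat2, a STAT protein of the type I pathway, had a log2 fold change of 0.01 and its partner Irf9 of 0.61, neither past the threshold. Treated OIR against OIR gave Stat2 at -0.27 and Irf9 at -0.56, while Ifngr1 was at -0.29 ± 0.12 and Il10rb at -0.74 ± 0.44.

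Over the whole pathway, 175 further gene names were listed, with older and newer names of some genes both included. Of these names 171 were in the table and 140 were tested. In OIR against control 105 had a positive and 35 a negative log2 fold change, with a median of 0.34. One passed, Trim25, a ubiquitin ligase that activates the RNA sensor RIG-I, which was at 24.2, 22.9 and 18.4 CPM in controls and 39.9, 36.9 and 41.0 CPM in OIR mice. It rose by a log2 fold change of 0.84 ± 0.16 (edgeR adjusted p 0.0485). The call was lost with total counts alone and with DESeq2 size factors in edgeR, where 0.211% and 0.77% of all genes passed. It was also lost with sex as a covariate and when any 1 mouse but treated OIR mouse 2 or 10 was left out. In these last fits 0 of all genes passed, so the loss there is not particular to Trim25. The 23 genes higher and 5 lower at an unadjusted p below 0.05 compare with 11.1% and 12.7% of all genes. The 23 were 35 without control mouse 1, 13 without control mouse 7, 15 without OIR mouse 5 and 12 without OIR mouse 6, in fits where 7.62% to 10.97% of all genes were higher. With treatment, treated OIR against OIR, 27 were positive and 113 negative, with a median of -0.36. None of the 140 passed in edgeR (DESeq2 on all 9 mice 0, limma-voom 0, DESeq2 on the 2 groups 3), 0 were higher and 16 lower at an unadjusted p below 0.05, and 25 were lower without overlap. Those 16 and 25 compare with the 2.30% and 5.39% of all genes given above, and without treated OIR mouse 2 the count of 16 was 33 of 142 against 4.69%. It was 7 without OIR mouse 6, 8 without treated OIR mouse 10 and 9 without OIR mouse 5 or treated OIR mouse 5, in fits where 1.07% to 1.64% of all genes were lower, and 24 without control mouse 7 against 2.57%.

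**Figure D4:**
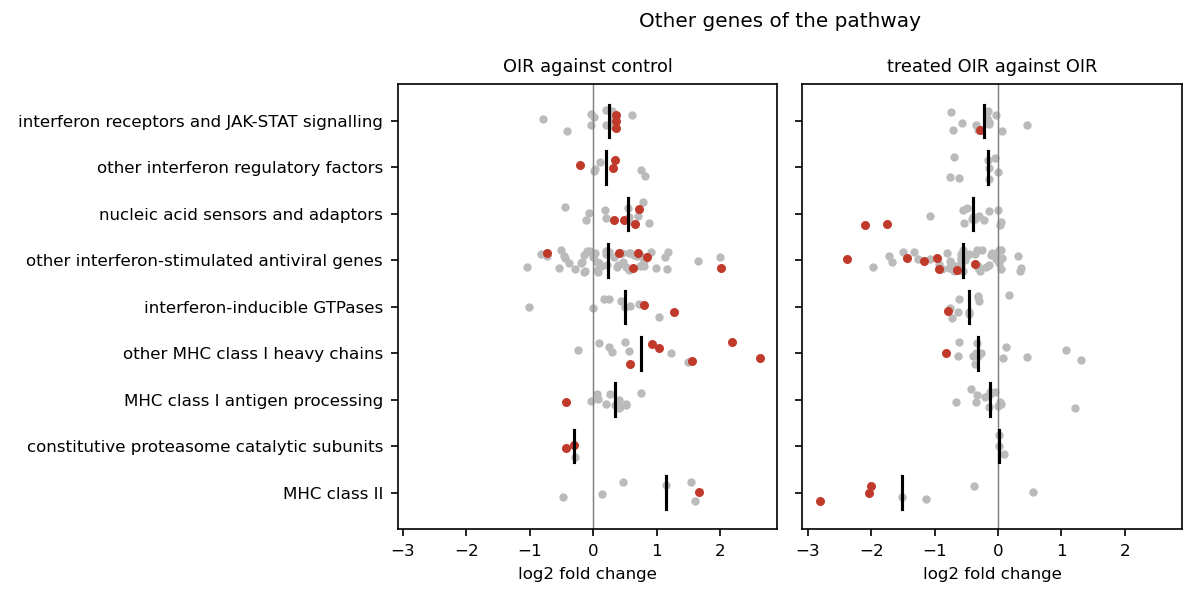
Each row is a gene list of the pathway, each point the log2 fold change of 1 tested gene (horizontal axis), red where the unadjusted edgeR p was below 0.05, and black bars mark the list medians. In treated OIR against OIR every list median but that of the constitutive proteasome lies below 0, with MHC class II at -1.52.

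The antiviral genes were the largest list. Treated OIR mice set against OIR mice had 48 of 56 with a negative log2 fold change, with a median of -0.56, and 8 of 56 were lower at an unadjusted p below 0.05, against 2.30% of all genes. Ifit1, which binds the capped ends of viral RNA, was at 3.48, 2.94 and 6.30 CPM in OIR mice and 2.16, 1.78 and 0.77 CPM in treated OIR mice 2, 5 and 10. The groups did not overlap, and the log2 fold change was -1.44 ± 0.51 (edgeR adjusted p 0.99). Parp14, an ADP-ribosyltransferase, gave -0.92 ± 0.31. In OIR against control 38 of 56 antiviral genes were positive, and Cmpk2, a mitochondrial nucleotide kinase, ran the other way at -0.73 ± 0.24. Of the interferon-inducible GTPases, which act on the membranes around intracellular pathogens, 9 of 11 were positive in OIR against control, with the lowest p for Gbp9 (1.28 ± 0.38) and Gbp7 (0.80 ± 0.26). Of the same genes 10 of 11 were negative in treated OIR against OIR, with Igtp at -0.79 ± 0.26 and Gbp5 at -0.76 ± 0.38.

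Sensors of viral nucleic acids act before interferon is made, and the other regulatory factors were a separate list. Tlr3, which detects double-stranded RNA, had a log2 fold change of 0.72 ± 0.20 and the adaptor Mavs of 0.48 ± 0.17 in OIR against control, where 12 of 15 sensor genes were positive. Tlr7 and Tlr9, endosomal sensors of single-stranded RNA and of DNA, were at -2.10 ± 0.59 and -1.75 ± 0.70 in treated OIR against OIR. That list also held genes of IRF2-binding proteins, which are not interferon regulatory factors themselves. Of its 8 genes tested, 7 were positive in the first comparison, with the binding protein gene Irf2bp2 at 0.35 ± 0.09 and Irf2 at 0.31 ± 0.11. All 8 were negative in the second, with Irf8, a myeloid transcription factor, at -0.69 ± 0.49. None of these genes passed the adjusted threshold in edgeR.

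The class I pathway around the members is made of heavy chains, peptide transport and the proteasome. Of the other heavy chain genes 13 of 14 were positive in OIR against control, with a median of 0.76. Hfe, a class I-like regulator of iron uptake, was at 10.9, 11.3 and 9.35 CPM in controls and 16.4, 20.0 and 23.6 CPM in OIR mice, and Mr1, which presents vitamin metabolites, gave 0.59 ± 0.18. Hfe had no overlap and a log2 fold change of 0.93 ± 0.21 (edgeR adjusted p 0.0613). Of the 14, 9 were negative in treated OIR against OIR, with the lipid-presenting Cd1d1 at -0.82 ± 0.24 and Mr1 at -0.34 ± 0.18. Of the peptide loading genes, in OIR against control Tap1 was at 0.52 ± 0.32, Tap2 at 0.26 ± 0.29 and Tapbpl at 0.40 ± 0.19. Set between treated OIR and OIR these 3 stood at -0.35, -0.42 and -0.33.

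The immunoproteasome and the standard proteasome can be set side by side. Psmb9, another immunoproteasome subunit, had a log2 fold change of 0.40 ± 0.51 in OIR against control and Psmb10 of -0.04 ± 0.25. Psmb5, the standard subunit that Psmb8 replaces, was at 114, 105 and 120 CPM in controls, 86.6, 72.8 and 92.2 CPM in OIR mice and 93.2, 82.9 and 77.1 CPM in treated OIR mice. Every OIR and treated OIR mouse was below every control, with a log2 fold change of -0.43 ± 0.12 in OIR (edgeR adjusted p 0.0867) and -0.42 ± 0.12 in treated OIR against control. Psmb6 was at -0.30 ± 0.12 in OIR against control, and the proteasome activator subunit Psme1 at -0.43 ± 0.11. The level of Psmb8 per length, divided by that of Psmb5, ran from 0.00673 in control mouse 7 to 0.0365 in OIR mouse 6. Nlrc5, the class I transactivator, was at 2.37, 0.54 and 0.13 CPM in controls, 0.96, 1.72 and 2.70 CPM in OIR mice and 11.5, 0.80 and 0.41 CPM in treated OIR mice, so that its highest value came from treated OIR mouse 2 alone.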

How the data were processed

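Retinal RNA (miRNeasy, standard Illumina libraries) of 9 mice was sequenced. The deposited file holds unnormalized read counts, 1 column a mouse, with gene lengths and positions. The submitters' processing notes name CASAVA and HISAT; versions, counter, annotation and strand setting are not given in the sources used here. All sample columns were matched to labels (0 unmatched). Counts were filtered with filterByExpr, scaled by TMM and tested with edgeR 4.0.16 (R 4.3.3) in 1 quasi-likelihood fit over all 9 mice, with Benjamini-Hochberg adjustment over 17540 genes and 0.05 as threshold. Log2 CPM used a prior count of 2, and CPM uses TMM-scaled totals. Alternatives used DESeq2 1.42.0, limma-voom with sample quality weights (limma 3.58.1) and other scalings, filters and sets of mice. The procedure was tested on simulated data for OIR against control. Of 200 genes given a change there, 104 were recovered, with 5 false calls, so a gene that did not pass may still differ. Of 54532 gene IDs, 98.3% of those found in GENCODE M21 had the same position there, as did 8 of the 9 members; 50-base stretches were compared among its transcripts. Named genes were the members, genes fixed by role, those past the threshold, those of lowest p per list and the 10 most alike; some genes that this rule names are not reported here. Members and lists were chosen with earlier results of these data known.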

Additional observations from a re-analysis of the deposited data

How the results depend on the processing

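Of 540 results for single members over 20 alternatives, 518 kept their sign and their side of the threshold, 6 passed it and 16 changed sign. No member passed in the reported fit, and in several alternatives 0 of all genes passed. Keeping the side of the threshold was therefore often fixed in advance. The alternatives also reuse the same mice, so they are not independent checks. In OIR against control, members past the threshold numbered 1 with DESeq2 on the 2 groups, where 15.5% of all genes passed. They numbered 2 with limma-voom, where 13.1% did. In treated OIR against control they numbered 1 each with DESeq2 on all 9 mice, DESeq2 on the 2 groups and limma-voom. Of all genes, 4.22%, 1.56% and 5.28% passed in those fits, in that order. Between treated OIR and OIR mice the count of members past the threshold was 0 in all 20. At most 0.448% of all genes passed in any of these fits, so a count of 0 is not particular to the members. List genes past the threshold in OIR against control (1 of 140 in the reported fit) numbered 11 of 164 with DESeq2 on all 9 mice, where 11.6% of all genes passed. With DESeq2 on the 2 groups they numbered 14 of 163, against 15.5% of all genes. The count was 8 of 137 with edgeR on the 2 groups (10.3% of all genes), 11 of 140 with limma-voom (13.1%) and 2 of 164 with no filter (1.75%). It was 0 with total counts alone (0.211%), DESeq2 size factors (0.77%) or sex as a covariate (0%). Leaving out 1 mouse gave 0 to 10, the 10 without treated OIR mouse 2, where 12.5% of all genes passed. Where it gave 0, no gene outside the lists passed either. In treated OIR against control list genes past the threshold numbered 5, 3 and 7 with DESeq2 on all mice, DESeq2 on the 2 groups and limma-voom. The shares of all genes were 4.22%, 1.56% and 5.28%. In treated OIR against OIR the list genes numbered 3 with DESeq2 on the 2 groups (H2-Aa, Tlr7 and Ifi207), against 0.448% of all genes. The members' median in OIR against control ranged from 0.035 (without OIR mouse 6) to 1.003 (without control mouse 1) with 1 mouse left out, and was 0.68 with sex as a covariate and 0.62 with limma-voom. List genes lower at an unadjusted p below 0.05 in treated OIR against OIR (16 as reported) numbered 47 with limma-voom, 25 with DESeq2 on the 2 groups and 24 with edgeR on the 2 groups. Of all genes, 7.53%, 1.76% and 2.60% were lower in those fits, in that order. List genes higher in OIR against control (23) numbered 40 with limma-voom, where 15.3% of all genes were higher. With 1 mouse left out, log2 fold changes that changed sign ranged as follows. In OIR against control Isg15 ran from -0.52 (without OIR mouse 6) to 0.17 (without control mouse 1), also turning without control mouse 6 (0.0079) and OIR mouse 3 (0.14), and Bst2 from -0.083 (without OIR mouse 6) to 1.28 (without control mouse 1). For treated OIR against control the lowest values, all without treated OIR mouse 2, were -0.17 for Irf1, -1.06 for Bst2, -0.44 for B2m, -0.069 for H2-K1, -0.22 for H2-D1 and -0.73 for Psmb8. Their highest were 0.67 for Irf1 (without treated OIR mouse 10) and, without control mouse 1, 0.29 for Bst2, 0.73 for B2m, 1.14 for H2-K1, 0.54 for H2-D1 and 0.19 for Psmb8. H2-D1 also turned without control mouse 7 (-0.027), and B2m (0.17) and Psmb8 (0.062) without treated OIR mouse 10. The tool limma-voom gave -0.20 for Irf1, -0.056 for Irf7 and 0.13 for B2m there. The cause of these changes was not tested. Isg15 had as few as 28 reads in a mouse, the lowest count of a member. No paired analysis was possible because the labels describe no pairing of mice between groups. Control and OIR mice share 1 replicate number, as do OIR and treated OIR mice, but a shared number is not labelled as a pair.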

Other observations

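Some antigen presentation genes had their highest value in treated OIR mouse 2, the library rich in lens RNA. The class II chain H2-Ab1 was at 48.1 CPM in that mouse and at 7.91 and 7.71 CPM in treated OIR mice 5 and 10, against 9.41, 11.05 and 22.9 CPM in OIR mice. H2-Q7, a non-classical class I chain chosen here after its values were seen, was at 40.0 CPM in mouse 2, against 6.07 and 7.35 CPM in the other treated OIR mice and at most 12.1 CPM in OIR mice. H2-Q2, chosen the same way, was at 15.5 CPM in mouse 2 and between 1.84 and 3.39 CPM in the other 2. In H2-Q7 26.4% of 50-base stretches occur in other genes. The part of lens RNA in these values was not tested.

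Other class II genes did not share that high value. Cd74, the invariant chain, was at 9.81, 7.43 and 1.48 CPM in controls, 10.1, 16.5 and 33.2 CPM in OIR mice and 9.20, 2.64 and 2.78 CPM in treated OIR mice 2, 5 and 10. All OIR mice were above all mice of both other groups. The log2 fold change was 1.66 ± 0.72 in OIR against control and -2.04 ± 0.74 in treated OIR against OIR (edgeR adjusted p 0.204 and 1). H2-Aa had a log2 fold change of -2.81 and H2-Eb1 of -2.005 in treated OIR against OIR, both without overlap. The microglia and macrophage marker sum was likewise lower in all treated OIR mice than in all OIR mice. Between control and OIR it did not separate the groups, with 709 CPM in control mouse 1 and 705 CPM in OIR mouse 6. The part of these cells in the class II levels was not tested.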
